A study of Mus musculus with 2 samples.

Results

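The genes of oxidative phosphorylation were examined in single cells of mouse mammary transplants. They were taken by symbol, as rows that start with mt-Nd, mt-Co, mt-Cytb, mt-Atp, Ndufa, Ndufb, Ndufc, Ndufs, Ndufv, Uqcr, Cox4i, Cox5, Cox6, Cox7, Cox8 or Atp5 and that hold at least 20 unique molecular identifiers (UMIs, each a captured RNA molecule) over all cells. Of 101 rows with these prefixes 98 met the minimum, among 28000 rows in the table and 11067 with at least 20 UMIs. Below it were Cox7b2 and Cox8b with 0 UMIs and Cox8c with 1 UMI, and just above it Cox6a2 with 21, Ndufa4l2 with 23 and Cox4i2 with 29 UMIs. Of the 98 members, 13 are encoded by the mitochondrial genome and 85 by the nucleus. The nuclear members comprised 36 subunits of complex I and 7 of its assembly factors (Ndufaf genes), 8 subunits of complex III, 15 subunits of complex IV (with Ndufa4, a complex IV subunit despite its name) and Ndufa4l2, an isoform of Ndufa4, and 15 subunits of ATP synthase (complex V). Cox7a2l, a factor of respiratory supercomplexes, and Atp5s and Atp5sl, taken by prefix and not counted under a complex here, made up the rest.

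The grafts had been placed in cleared fat pads of female nude mice, 3 weeks of age, a host that lacks T cells and keeps other immune cells. In the Ctrl library (genotype WT), green donor basal cells with intact Fgfr2 had been mixed with red wild-type luminal cells. In the Fgfr2 KO library the green basal cells had lost Fgfr2 through adenoviral Cre, and the red luminal cells were again wild-type. In the study's transplant strategy, donor cells with intact Fgfr2 were infected with adenoviral Cre as well. Donor cells carried an R26R color reporter, and grafts were collected 5 days after surgery, sorted by flow cytometry and run on the 10x Genomics platform. Each group was 1 library, so no difference between them has a replicate check and no test was made. All intervals below are 95% intervals for the counting of UMIs or cells, and variation between animals, grafts and libraries lies outside them. The number of mice behind a library is not given in the sources used here.

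Oxidative phosphorylation passes electrons through complexes I to IV to oxygen, and complex V makes ATP from the proton gradient that results. Complexes I, III, IV and V are assembled from subunits of both genomes, so that RNA made inside the organelle and RNA made in the nucleus supply the same complexes, while complex II is nuclear only. The share of mitochondrial RNA in a droplet is also widely used to mark damaged cells.

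The mitochondrial genes lie close together, and 3′ counting has to tell their ends apart. By the GENCODE annotation of GRCm38, 12 of the 13 are on the plus strand and mt-Nd6 is on the minus strand. There are 4 overlapping pairs. The longest overlap is that of mt-Atp8 and mt-Atp6, 43 bases that both genes use (chrM:7927-7969, plus strand), shown here with the start codon of mt-Atp6 and the stop codon of mt-Atp8 in capitals.
mt-Atp8/mt-Atp6 overlap: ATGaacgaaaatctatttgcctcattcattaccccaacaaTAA
In mt-Nd4l and mt-Nd4 the overlap is 7 bases, in mt-Nd5 and mt-Nd6 14 bases on opposite strands, and in mt-Atp6 and mt-Co3 1 base. Because mt-Atp8 with mt-Atp6, and mt-Nd4l with mt-Nd4, are carried on shared messengers, the split of UMIs within these pairs is uncertain. The last 30 bases of 4 members that the results turn on follow, all from the plus strand, with the bases of the stop codon that the genome encodes in capitals. They are mt-Nd2 (chrM:4922-4951), mt-Co1 (chrM:6843-6872), mt-Atp6 (chrM:8578-8607) and mt-Cytb (chrM:15259-15288).
mt-Nd2: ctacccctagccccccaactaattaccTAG
mt-Co1: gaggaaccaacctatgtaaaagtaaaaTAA
mt-Atp6: gtaagcctatatctacatgataatacaTAA
mt-Cytb: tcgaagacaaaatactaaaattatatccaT
mt-Cytb, like mt-Co3 and mt-Nd4, ends 1 base past its last whole codon, and the stop codon is completed by the poly(A) tail.

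Promoters of nuclear members are known for sites of NRF1, GABPA and YY1, factors that act on many mitochondrial genes. RefSeq promoters (GRCm38.p6, 250 bases before to 50 bases after the start) matched 68 of the 85 nuclear members, with 73 promoters. The NRF1 core CGCATGCG, which reads the same on both strands, was in 11 of them (15.1%) and in 1.87% of 32851 promoters of all genes. The GABPA motif CCGGAAGT was in 5 (6.85%, against 3.89% of all) and the YY1 motif AAGATGGC in 9 (12.3%, against 2.75%), each searched on both strands. In all, 23 of the 68 genes held at least 1 of these motifs, which describes letters and not occupied sites. Examples follow, from 170 bases before to 30 bases after the start and in the direction of the gene. They were taken from promoters that hold a motif and whose genes are named in the comparisons below. Uqcr11 (chr10:80406792-80406991, minus strand) holds the GABPA and the NRF1 motif, Cox8a (chr19:7217587-7217786, minus strand) the GABPA motif in reverse complement, and Atp5k (chr5:108434370-108434569, minus strand) the NRF1 motif, all in capitals.
Uqcr11: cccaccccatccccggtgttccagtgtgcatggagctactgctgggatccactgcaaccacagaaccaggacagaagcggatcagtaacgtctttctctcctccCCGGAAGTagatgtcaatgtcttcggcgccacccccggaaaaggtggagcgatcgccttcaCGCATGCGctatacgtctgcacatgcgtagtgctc
Cox8a: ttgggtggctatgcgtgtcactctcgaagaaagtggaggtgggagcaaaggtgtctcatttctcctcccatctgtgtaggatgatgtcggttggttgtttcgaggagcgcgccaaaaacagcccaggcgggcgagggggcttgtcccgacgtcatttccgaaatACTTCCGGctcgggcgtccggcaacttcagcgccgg
Atp5k: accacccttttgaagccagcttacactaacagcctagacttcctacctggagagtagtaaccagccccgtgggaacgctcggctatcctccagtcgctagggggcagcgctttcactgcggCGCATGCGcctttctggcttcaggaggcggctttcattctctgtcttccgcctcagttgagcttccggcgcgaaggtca

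The Ctrl library held 268 cells and 5458515 UMIs (4086 to 96751 per cell, median 16301), and the Fgfr2 KO library 86 cells and 1253032 UMIs (1367 to 84314 per cell, median 10485). Cells with at least 1 UMI of Ptprc (CD45, the pan-leukocyte marker) were called Ptprc cells. Of the others, those with at least 10 keratin UMIs were called luminal keratin cells where Krt8 and Krt18 outnumbered Krt14 and Krt5, and basal keratin cells in the reverse case, and the rest were few-keratin cells. Luminal keratin cells numbered 98 in Ctrl and 20 in Fgfr2 KO, basal keratin cells 63 and 17, Ptprc cells 73 and 23 and few-keratin cells 33 and 26, with 1 tied Ctrl cell. Summed luminal markers reached 9434 UMIs per 1000000 (CPM) in luminal and 2294 CPM in basal keratin cells of Ctrl, and basal markers 1652 and 9256 CPM. Although the labels call all cells epithelial, few-keratin cells of Ctrl and Fgfr2 KO carried immune markers at 11617 and 11497 CPM and fibroblast markers at 19646 and 1872 CPM. This class is therefore only described, and no ratio was taken for it. The study set immune cells aside by CD45 before its own comparisons, whereas the table still holds them and all of its cells are used here. Cells with no Ptprc UMI numbered 195 in Ctrl and 63 in Fgfr2 KO. These are more than the study went on with, and the Ptprc class is one that it set aside. In the Ptprc class, 15 of 73 Ctrl cells had at least 10 keratin UMIs and held 46.1% of its UMIs. In Fgfr2 KO 1 cell of 23 did, with 83994 UMIs, 611 of them keratin and 1 of Ptprc, and it held 30.9%. Fgfr2 had 41 UMIs in basal keratin cells of Ctrl (32.9 CPM, 23.6 to 44.7) and 7 in those of Fgfr2 KO (24.7 CPM, 9.94 to 51.0), a difference not detectable at this depth, and 3′ UMIs need not lie in the deleted part of the gene. A sum over a class cannot tell fewer transcripts per cell from a different mix of cells.

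In keratin cells, RNA from the 2 genomes was of the same order. In luminal keratin cells of Ctrl and Fgfr2 KO the mitochondrial members summed to 3.08% and 3.52% of UMIs and the nuclear members to 2.70% and 2.77%. In basal keratin cells the mitochondrial sums were 3.11% and 3.08% and the nuclear sums 2.53% and 2.43%. There were thus 1.14 and 1.27 mitochondrial UMIs per nuclear UMI in luminal and 1.23 and 1.27 in basal keratin cells. Ptprc cells held 2.57% and 3.95% mitochondrial and 2.53% and 2.41% nuclear UMIs of the family, a ratio of 1.02 and 1.64. Few-keratin cells summed to 4.08% and 9.62% mitochondrial and 2.04% and 1.87% nuclear UMIs, and without their 9 cells above 25% mitochondrial UMIs, described below, to 2.38% and 2.97% mitochondrial and 2.11% and 1.999% nuclear UMIs. Without the 2 such cells of the Ptprc class, its Fgfr2 KO share was 2.76%, so that the order of the classes by mitochondrial share rested on these cells.

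Cell by cell the classes overlapped. The median mitochondrial share per cell was 3.01% and 3.83% in luminal keratin cells of Ctrl and Fgfr2 KO, 3.09% and 2.73% in basal keratin cells, 2.55% and 2.96% in Ptprc cells and 2.60% and 3.16% in few-keratin cells. Of the 20 Fgfr2 KO luminal keratin cells, 11 lay above the upper quartile of the Ctrl luminal keratin cells (3.62%), and of the 17 basal keratin cells 5 lay above that of Ctrl (3.67%). The luminal keratin cells of Fgfr2 KO thus sat higher within a shared range, since 17 of 98 Ctrl cells lay above the Fgfr2 KO median. The median nuclear share was 2.51% and 2.61% in luminal keratin, 2.41% and 2.45% in basal keratin and 2.34% and 1.99% in Ptprc cells. Nuclear shares had the smaller maxima in luminal keratin cells, 4.22% and 4.69% against 15.6% and 7.61% for mitochondrial shares. Across cells, Spearman's rho of the mitochondrial share with UMIs per cell was between -0.43 and -0.11 in the 8 groups of class and library (n from 17 to 98 cells), and that of the nuclear share between 0.06 and 0.55. Both are descriptions, as share and depth are counted from the same UMIs.

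**Figure D1:**
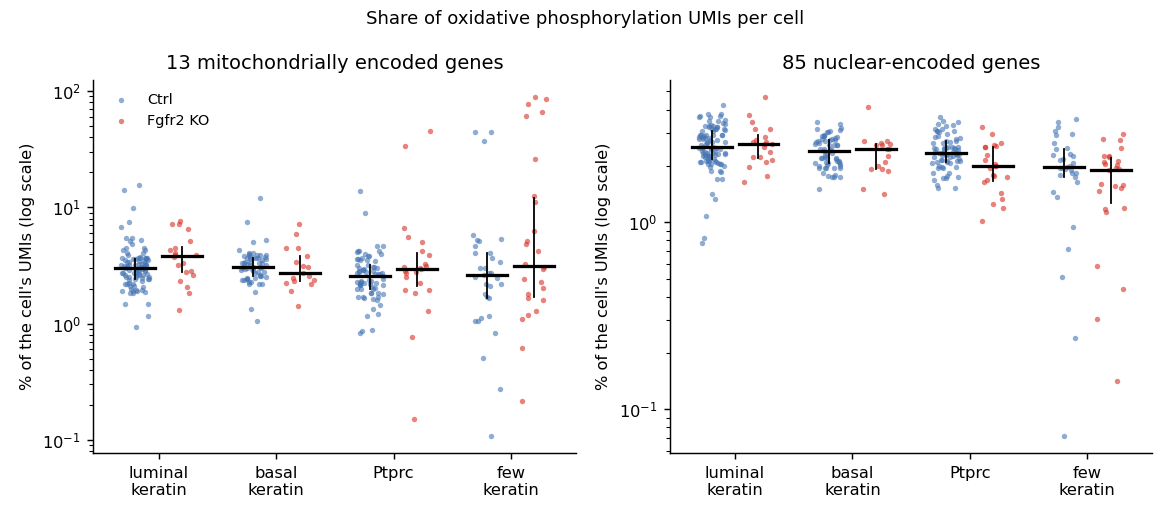
Each point is a cell, with the share of its UMIs (%, log scale) from the 13 mitochondrially encoded genes on the left and from the 85 nuclear-encoded genes on the right, by class and library; thick bars are medians and thin bars quartiles. Mitochondrial shares reach 89.2% in few-keratin cells of Fgfr2 KO, while the highest nuclear share of any cell is 4.69%.

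A small set of cells stood apart by mitochondrial RNA. Above 25% lay 11 cells, 3 of 268 in Ctrl (1.12%, exact Clopper-Pearson interval 0.231 to 3.24%) and 8 of 86 in Fgfr2 KO (9.30%, 4.10 to 17.5%). The libraries differ in their lowest depth, and 6 of the 8 had fewer UMIs than any Ctrl cell, as did 17 Fgfr2 KO cells in all. Among cells with at least 4086 UMIs, the lowest depth in Ctrl, 2 of 69 Fgfr2 KO cells lay above 25% (2.90%, 0.353 to 10.1%), an interval that includes the Ctrl share. They ranged from 26.2 to 89.2%, and the next cell below was at 15.6%. None of them was a luminal or basal keratin cell: 3 Ctrl and 6 Fgfr2 KO cells had few keratin UMIs, and 2 Fgfr2 KO cells had a Ptprc UMI. They were shallow, with 1367 to 5501 UMIs and a median of 697 genes, against medians of 15356 UMIs and 3304 genes in the other 343 cells. Nuclear members made up 0.142 to 1.95% of their UMIs. Over non-mitochondrial UMIs alone the nuclear share was 1.87% in the median (0.429 to 5.39%), against 2.42% in the other cells. By library this median was 0.908% in the 3 Ctrl cells and 2.49% in the 8 Fgfr2 KO cells. Within few-keratin cells alone it was 1.14% in the 9 cells above 25% and 2.07% in the other 50. Within mitochondrial UMIs the mt-Co genes held 39.2 to 55.6% (median 49.4%), against a median of 48.5% in the other cells. Malat1, an RNA retained in the nucleus, held a median of 5.14% of non-mitochondrial UMIs (0 to 36.9%) against 1.55%, and cytosolic ribosomal protein genes 13.4% against 23.3%. By library the Malat1 medians were 11.7% in the 3 Ctrl and 2.77% in the 8 Fgfr2 KO cells and the ribosomal ones 4.83% and 17.1%. Within few-keratin cells, Malat1 was at 7.38% in those above 25% and 1.88% in the others, and ribosomal protein genes at 13.4% and 18.7%.

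**Figure D2:**
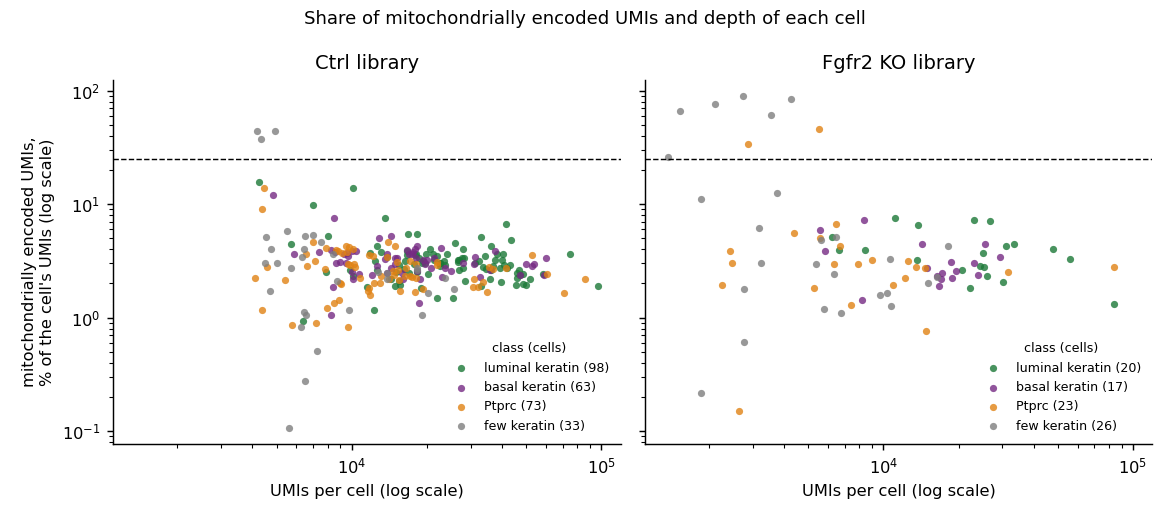
Each point is a cell, with its UMIs on the x axis and the share of mitochondrially encoded UMIs (%) on the y axis, both on log scales, colored by class, Ctrl on the left and Fgfr2 KO on the right; the dashed line marks 25%. The 11 cells above the line have at most 5501 UMIs, and no luminal or basal keratin cell is among them.

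Between the libraries, the mitochondrial members were higher in luminal keratin cells of Fgfr2 KO and level in basal keratin cells, while the nuclear members differed little in either. Here CPM pairs are given as Ctrl then Fgfr2 KO, followed by the log2 ratio of Fgfr2 KO over Ctrl with its interval. The mitochondrial sum in luminal keratin cells was 30808 and 35241 CPM (0.19, 0.17 to 0.22). Of the 12 mitochondrial genes with at least 100 UMIs over both sides, 11 were above 0 and mt-Atp8 was not (-0.13, -0.46 to 0.18), with a median of 0.20 beside -0.06 for all genes compared. The complex I genes mt-Nd5 (275 and 389.8 CPM, 0.50, 0.27 to 0.72), mt-Nd3 (390.0 and 543 CPM, 0.48, 0.28 to 0.67) and mt-Nd2 (1023 and 1378 CPM, 0.43, 0.31 to 0.55) had the largest ratios. mt-Co1, the catalytic core of complex IV, was at 5149 and 6238 CPM (0.28, 0.22 to 0.33), and mt-Atp6, the proton channel subunit of complex V, at 6079 and 6695 CPM (0.14, 0.09 to 0.19). The sum was carried unevenly by cells, as the deepest Fgfr2 KO cell, with 84314 UMIs, held 15.7% of the class's UMIs at a mitochondrial share of 1.32%, and without the deepest cell on each side the ratio was 0.33. With no keratin minimum it was 0.48. An interval above 0 was found for 10 of the 12 genes, beside 9.71% of all genes compared. The summed markers of the luminal keratin class differed between the libraries too: luminal markers were at 9434 and 7357 CPM (-0.36, -0.41 to -0.31), lower in 9 of 9 genes compared, and basal markers at 1652 and 1285 CPM (-0.36, -0.48 to -0.25). Immune markers were at 554 and 265 CPM (-1.07, -1.32 to -0.82) and fibroblast markers at 560.0 and 151 CPM (-1.89, -2.23 to -1.57), while the cytosolic ribosomal protein genes, at 0.15, were above 0 in 78 of 82 genes compared. The sum of 11 listed stress genes (Fos, Jun, Hspa1a and others) was higher as well, at 6265 and 8282 CPM (0.40, 0.35 to 0.45) in luminal keratin, 6869.6 and 11423 CPM (0.73, 0.67 to 0.79) in basal keratin and 3785 and 6724 CPM (0.83, 0.75 to 0.91) in Ptprc cells. Past 1.5-fold higher were 5 of 11, 7 of 11 and 7 of 10 stress genes compared, beside 5.1%, 5.24% and 9.12% of all genes, and 2, 1 and 1 lay below 0. The part of these markers and stress genes in the result was not tested.

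In basal keratin cells the mitochondrial sum was 31090.2 and 30782 CPM (-0.01, -0.05 to 0.02). Single genes spread around it, 5 above and 7 below 0. mt-Co2, which takes electrons from cytochrome c, was higher in Fgfr2 KO (2637 and 2933 CPM, 0.15, 0.04 to 0.26), and the complex I gene mt-Nd1 was lower (3251 and 2812 CPM, -0.21, -0.32 to -0.10). A level sum thus held genes past counting error in both directions. Classes follow keratin UMIs and not donor color, so Fgfr2-null donor cells may lie in either keratin class. The summed markers of the class differed between the libraries here too, with basal markers at 9256 and 11985 CPM (0.37, 0.32 to 0.43), luminal markers at 2294 and 1678 CPM (-0.45, -0.59 to -0.31), immune markers at 849 and 289.7 CPM (-1.55, -1.89 to -1.23) and fibroblast markers at 119.6 and 28.3 CPM (-2.08, -3.32 to -1.07). Their part in the values of basal keratin cells, nuclear members included, was not tested. In Ptprc cells the mitochondrial sum was 25708 and 39495 CPM (0.62, 0.59 to 0.65), but it was 0.10 without the 2 Ptprc cells above 25% and 1.11 with each cell weighted alike. With those cells 7 of 12 mitochondrial genes were at least 1.5-fold higher, among them mt-Nd3 (0.96) and mt-Nd4 (0.75), beside 9.12% of all genes, and without them 0 were, beside 9.05%. Markers in Ptprc cells also differed between the libraries, with basal markers at 1682 and 133 CPM (-3.66, -4.18 to -3.19), luminal markers at 2048 and 4429 CPM (1.11, 1.01 to 1.21) and immune markers at 21471 and 19812 CPM (-0.12, -0.16 to -0.07). Their part in the values of Ptprc cells, nuclear members and glycolysis included, was not tested.

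Members past a fixed 1.5-fold were counted beside the share of all genes with at least 100 UMIs. In luminal keratin cells 1 of 85 members was higher in Fgfr2 KO and 0 were lower, beside 5.1% higher and 13.4% lower of 3840 genes. The member was Ndufaf2, an assembly factor of complex I (48.7 and 78.3 CPM, 0.69, 0.15 to 1.20, on 128 and 42 UMIs). In basal keratin cells 0 of 82 members were higher and 4 lower, beside 5.24% and 15.4% of 1946 genes. In Ptprc cells 7 of 80 were higher, all of them mitochondrial, and 2 lower, beside 9.12% and 17.2% of 1897 genes. In Ptprc cells with fewer than 10 keratin UMIs, 9 of 73 members, beside 10.3% of 1091 genes, were higher, again all mitochondrial, and without the 2 cells above 25% 0 of 73 members, beside 10.2% of 1087 genes, were. The 2 lower members over all Ptprc cells were Uqcrc1 and Ndufb3 (-0.62), the latter named after its value was seen.

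The nuclear members summed to 27043 and 27696 CPM (0.03, 0.01 to 0.06) in luminal keratin, 25274 and 24305 CPM (-0.06, -0.09 to -0.02) in basal keratin and 25311 and 24097 CPM (-0.07, -0.11 to -0.03) in Ptprc cells. With no keratin minimum the value in luminal keratin cells turned to -0.01, and without the deepest cells it was 0.07 there and -0.02 in basal keratin cells. The median ratios of the nuclear members were 0.02, -0.06 and -0.05, beside -0.06, -0.11 and -0.07 for all genes compared. In luminal keratin cells the sum was 0.01 for complex I, 0.06 for complex III, 0.03 for complex IV and 0.05 for complex V, each with an interval that includes 0. The complex I assembly factors summed to 0.37 (0.06 to 0.67). The largest part of that sum was Ndufaf2 (0.69, on 128 and 42 UMIs), and the sum without it was not taken. In basal keratin cells the sums of complexes I, III, IV and V were -0.04, 0.01, -0.10 and -0.05, of which that of complex IV lay below 0 with its interval. That sum includes Ndufa4 (-0.45), and it was not taken without this gene. Of 11 complex IV members compared there, 3 had an interval below 0, beside 16.6% of all genes compared. In Ptprc cells the sums of the complexes were -0.08, -0.07, -0.11 and -0.03. Over all cells of a class, each complex thus lay within 0.11 of 0. Ptprc cells gave lower values without the deepest cell on each side, with a nuclear sum of -0.20 (-0.24 to -0.15) and -0.17, -0.24, -0.23 and -0.17 for complexes I, III, IV and V. With fewer than 10 keratin UMIs their nuclear sum was -0.20 (-0.25 to -0.15).

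In luminal keratin cells 7 of 73 nuclear members had an interval above 0 and 1 below, beside 9.71% and 15.6% of all genes compared. In basal keratin cells these were 1 and 8 of 70, beside 10.7% and 16.6%, and in Ptprc cells 2 and 10 of 68, beside 13.7% and 18.5%. Ndufa4 was lower in Fgfr2 KO in luminal keratin cells (714 and 573 CPM, -0.32, -0.50 to -0.14) and in basal keratin cells (844 and 618 CPM, -0.45, -0.69 to -0.22). It was at -0.29 and -0.32 without the deepest cells, and at 444 and 387 CPM (-0.20, -0.51 to 0.10) in Ptprc cells. Cox8a, a small complex IV subunit whose promoter is shown above, was higher in luminal keratin cells of Fgfr2 KO (965 and 1222 CPM, 0.34, 0.21 to 0.46) and at 938 and 936 CPM (0.00, -0.20 to 0.19) in basal keratin cells. So a pair of complex IV subunits differed in opposite directions in luminal keratin cells. Atp5e, a subunit of the ATP synthase stalk, was higher there too (659.7 and 776 CPM, 0.23, 0.08 to 0.39). In basal keratin cells Ndufa1 was higher (170.2 and 240.3 CPM, 0.50, 0.08 to 0.90), and the complex I subunits Ndufa10 (147 and 81.3 CPM, -0.85, -1.55 to -0.22) and Ndufs7 (132 and 77.7 CPM, -0.77, -1.48 to -0.12) were lower, on 23 and 22 UMIs in Fgfr2 KO. The other members past 1.5-fold lower there were Ndufv1, the NADH-binding subunit (88.3 and 56.5 CPM, -0.64, -1.50 to 0.12), and Ndufb6 (-0.59), named after its value was seen. All 4 are complex I subunits, as are 35 of the 70 nuclear members compared there, and each rests on few UMIs in 17 cells. Past 1.5-fold lower without the deepest cells were 2 of 82 members, beside 15.2% of 1843 genes. In Ptprc cells Atp5b, the catalytic beta subunit of ATP synthase, was lower in Fgfr2 KO (641 and 438 CPM, -0.55, -0.84 to -0.27), as were the complex III subunits Uqcrc1 (206 and 129 CPM, -0.68, -1.23 to -0.16) and Uqcrq (587 and 435 CPM, -0.43, -0.73 to -0.15). Atp5g2 (529 and 656 CPM, 0.31, 0.06 to 0.55) and Uqcrh (489 and 589.5 CPM, 0.27, 0.01 to 0.52) were higher in the class as a whole. In Ptprc cells with fewer than 10 keratin UMIs, Uqcrc1 was at -0.45 (-1.18 to 0.22), Atp5g2 at 0.03 and Uqcrh at -0.19.

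**Figure D3:**
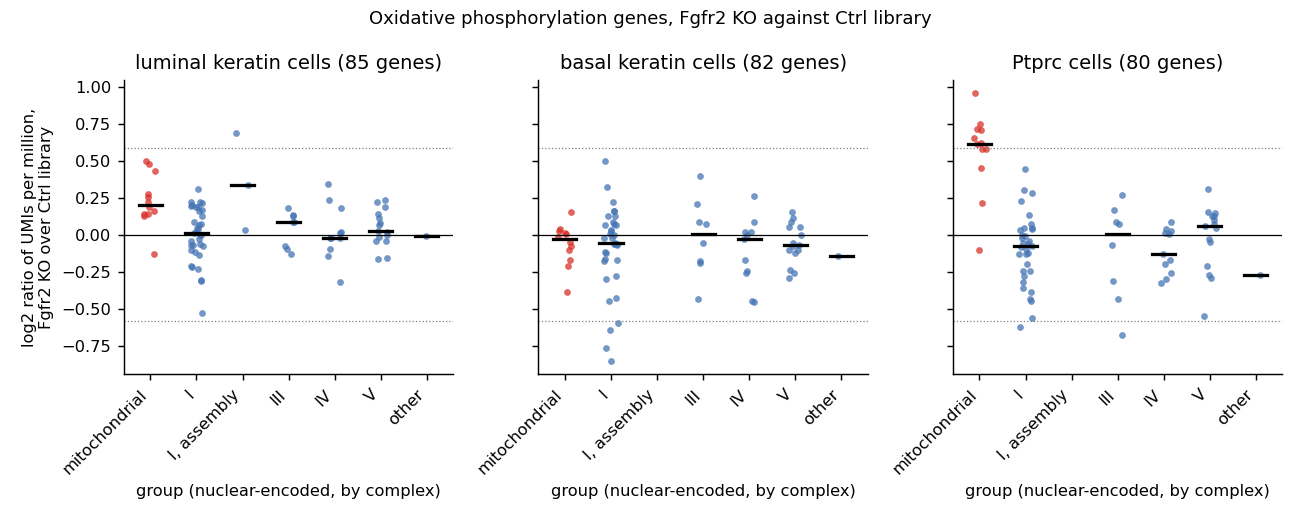
Each point is a gene with at least 100 UMIs over both libraries, with its log2 ratio of UMIs per 1000000, Fgfr2 KO over Ctrl, on the y axis, for luminal keratin, basal keratin and Ptprc cells; red points are mitochondrially encoded, blue points nuclear-encoded by complex, black bars medians and dotted lines 1.5-fold. The median of the mitochondrial genes is 0.20 in luminal keratin, -0.03 in basal keratin and 0.61 in Ptprc cells.

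Other core subunits chosen by name follow, beside Ndufv1, Uqcrc1 and Atp5b above. Cox4i1, the nuclear member with the most UMIs (8069), was at 1286 and 1305 CPM in luminal keratin, 1152 and 1127 CPM in basal keratin and 1163 and 1164 CPM in Ptprc cells. Uqcrfs1, the Rieske iron-sulfur protein of complex III, was at 218 and 248 CPM in luminal keratin and 202 and 177 CPM in basal keratin cells. Atp5a1, the alpha subunit of ATP synthase, was at 404 and 472 CPM (0.22, 0.02 to 0.42) in luminal keratin and 401 and 382 CPM (-0.07, -0.38 to 0.23) in basal keratin cells. The interval of Atp5a1 lay above 0 in luminal keratin cells. Ndufs1, an iron-sulfur subunit of complex I, had 143 UMIs in all and was at 23.6 and 24.2 CPM in luminal keratin cells.

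Lower in basal than in luminal keratin cells, with an interval below 0, were 21 of 73 nuclear members in the Ctrl library and 19 of 67 in the Fgfr2 KO library, beside 23.2% and 28.6% of all genes compared. With an interval above 0, 4 and 1 were higher, beside 13.7% and 17.6%. In both libraries 10 of 67 were lower in this way, beside 18.6% of 1057 genes, namely 4 of 11 complex IV subunits compared (Cox4i1, Cox5a, Cox7a2 and Cox7c), 3 of 15 of complex V (Atp5b, Atp5c1 and Atp5g1), 2 of 32 of complex I (Ndufa7 and Ndufab1) and 1 of 8 of complex III (Uqcr10). Those not described further here were named after their values were seen. In this comparison CPM pairs are luminal then basal keratin cells, and ratios are basal over luminal. Cox7a2, a small complex IV subunit, was lower in basal keratin cells of Ctrl (509 and 352 CPM, -0.53, -0.69 to -0.37) and of Fgfr2 KO (502 and 357 CPM, -0.49, -0.84 to -0.16). Cox5a, a complex IV subunit on the matrix side, was lower in Ctrl (462 and 338 CPM, -0.45, -0.62 to -0.29) and in Fgfr2 KO (455 and 300.3 CPM, -0.60, -0.97 to -0.24). Cox7c was lower in Ctrl (1017 and 904 CPM, -0.17, -0.27 to -0.07) and in Fgfr2 KO (1024 and 756 CPM, -0.44, -0.67 to -0.21), and Cox4i1 was at -0.16 (-0.25 to -0.07) and -0.21 (-0.41 to -0.02). Uqcr11, a complex III subunit with its promoter shown above, was lower in Ctrl (602 and 466 CPM, -0.37, -0.51 to -0.23) and at 638 and 537 CPM (-0.25, -0.53 to 0.03) in Fgfr2 KO. Atp5b was lower in Ctrl (814 and 674 CPM, -0.27, -0.39 to -0.16) and in Fgfr2 KO (789 and 618 CPM, -0.35, -0.61 to -0.09). Ndufa4 went the other way in Ctrl (714 and 844 CPM, 0.24, 0.13 to 0.35) and was at 573 and 618 CPM (0.11, -0.17 to 0.38) in Fgfr2 KO. Complex IV subunits were thus on both sides of 0 in the same cells. Ndufs4, an accessory complex I subunit (131 and 169 CPM, 0.37, 0.12 to 0.62), and Atp5l, of the membrane part of ATP synthase (825 and 923 CPM, 0.16, 0.06 to 0.27), were also higher in basal keratin cells of Ctrl. In Fgfr2 KO, Ndufa10 (155 and 81.3 CPM, -0.93, -1.66 to -0.25) was lower in basal keratin cells, and Ndufa1 was higher (164 and 240.3 CPM, 0.55, 0.07 to 1.02). Without the deepest cells Ndufa10 was at -0.69 (-1.44 to 0.02).

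The nuclear sum was lower in basal keratin cells of Ctrl (-0.10, -0.12 to -0.08) and of Fgfr2 KO (-0.19, -0.23 to -0.15), with 50 of 73 and 48 of 67 genes below 0. The medians were -0.09 and -0.21, beside -0.11 and -0.12 for all genes compared. The mitochondrial sum was 0.01 in Ctrl, with an interval that includes 0, and lower in Fgfr2 KO (-0.20, -0.23 to -0.16), where all 12 mitochondrial genes compared were below 0, 8 of them with their interval. The Fgfr2 KO value was -0.37 without the deepest cell on each side and -0.49 with no keratin minimum. The lowest of them was mt-Nd2 (1378 and 915 CPM, -0.59, -0.80 to -0.38). In Ctrl 5 were above and 7 below 0, from mt-Nd3 (0.22, 0.07 to 0.37) to mt-Atp8 (-0.15, -0.38 to 0.08), and beside mt-Nd3 those with an interval that excludes 0 were mt-Co3 (0.10, 0.06 to 0.14) and mt-Co1 (-0.05, -0.09 to -0.0041). By the 1.5-fold rule 0 of 85 members were higher and 1 lower in Ctrl, beside 7.48% and 13% of 4467 genes, and 0 of 79 were higher and 7 lower in Fgfr2 KO, beside 11.4% and 18.9% of 1057 genes. Without the deepest cells the 7 became 3 of 74 members, beside 15.9% of 897 genes. The member in Ctrl was Ndufaf3 (-0.82), an assembly factor of complex I, named after its value was seen. Cytosolic ribosomal protein genes summed to 0.14 and 0.07 in the same comparisons, and the 77 genes of the mitochondrial ribosome to -0.20 (-0.24 to -0.15) and -0.37 (-0.46 to -0.28). The stress genes summed to 0.13 (0.10 to 0.17) in Ctrl and 0.46 (0.40 to 0.53) in Fgfr2 KO. In luminal and basal keratin cells of Ctrl, immune markers were at 554 and 849 CPM and fibroblast markers at 560.0 and 119.6 CPM. In Fgfr2 KO these were at 265 and 289.7 CPM, and at 151 and 28.3 CPM. The part of stress genes and markers in the result was not tested.

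**Figure D4:**
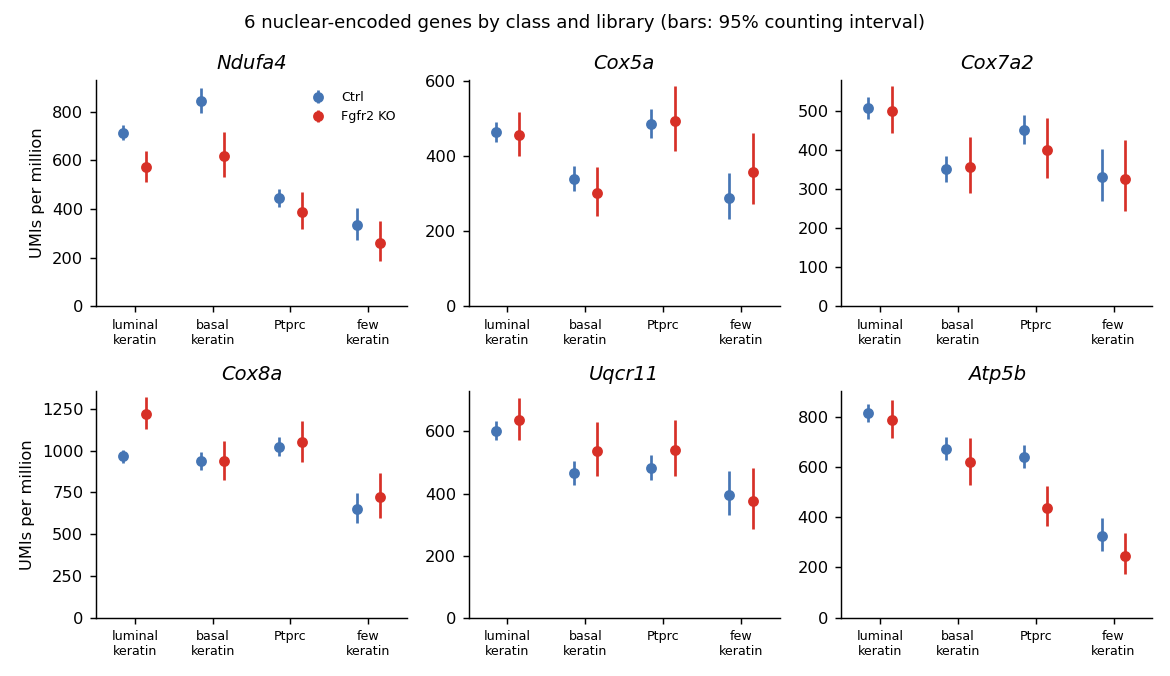
UMIs per 1000000 of 6 nuclear-encoded genes (y axis, from 0) by class and library; points are summed over the cells of a class, bars are exact Poisson 95% intervals for counting error. Ndufa4 is lower in Fgfr2 KO in luminal and basal keratin cells, and Cox5a, Cox7a2 and Atp5b are lower in basal than in luminal keratin cells of both libraries.

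Ptprc cells differed from luminal keratin cells in the mix of mitochondrial genes. CPM pairs are now luminal keratin then Ptprc cells, and ratios are Ptprc over luminal keratin. In Ctrl the mitochondrial sum was 30808 and 25708 CPM (-0.26, -0.28 to -0.24), and the nuclear sum 27043 and 25311 CPM (-0.10, -0.11 to -0.08). With fewer than 10 keratin UMIs both were at -0.13. mt-Co1 was level (5149 and 5158 CPM, 0.00, -0.04 to 0.05) and mt-Atp6 slightly lower (6079 and 5643 CPM, -0.11, -0.15 to -0.07). mt-Cytb, the mitochondrial subunit of complex III, was lower by more (3359 and 2147 CPM, -0.65, -0.71 to -0.58), as were the complex I genes mt-Nd4 (1783 and 1144 CPM, -0.64, -0.73 to -0.55), mt-Nd2 (1023 and 619 CPM, -0.72, -0.84 to -0.61) and mt-Nd3 (390.0 and 228 CPM, -0.78, -0.97 to -0.59). These complex I and III genes were the lowest, and mt-Co2 (-0.10), mt-Atp8 (-0.14), mt-Nd1 (-0.31), mt-Co3 (-0.32), mt-Nd5 (-0.40) and mt-Nd4l (-0.58) lay between. mt-Nd6, with 79 UMIs in all cells, was not compared. Stress genes were lower in Ptprc cells of Ctrl (-0.73) and of Fgfr2 KO (-0.30), and their part in the result was not tested.

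In Fgfr2 KO the direction of the sum depended on which cells were taken. The mitochondrial sum was 35241 and 39495 CPM (0.16, 0.13 to 0.20). It was -0.14 when keratin cells were classed with no minimum, which adds few-keratin cells to the luminal side. mt-Co1 (0.31), mt-Co2 (0.39), mt-Co3 (0.10), mt-Atp6 (0.37) and the complex I gene mt-Nd1 (0.17, 0.06 to 0.28) were higher in Ptprc cells, and mt-Cytb (-0.13, -0.25 to -0.02), mt-Nd2 (-0.44, -0.65 to -0.24) and mt-Nd5 (-0.68, -1.10 to -0.27) were lower. The intervals of mt-Nd3 (-0.30), mt-Nd4 (-0.08), mt-Nd4l (-0.38) and mt-Atp8 (-0.11) included 0. Without the 2 cells above 25% the sum was -0.35, with mt-Atp6 at -0.13, mt-Co1 at -0.21, mt-Cytb at -0.56 and mt-Nd2 at -0.69. The sum turned without those 2 cells as well, while mt-Co1 and mt-Atp6 were above mt-Cytb and mt-Nd2 with and without them. As a share of mitochondrial UMIs, mt-Cytb took 10.9% in luminal keratin and 8.35% in Ptprc cells of Ctrl, and 10.5% and 8.56% in Fgfr2 KO. The mt-Nd genes took 22.5% and 19.3% in Ctrl and 23.1% and 19.8% in Fgfr2 KO, and the mt-Co genes 46.2% and 49.7%, and 46.9% and 49.3%. Basal keratin cells, with mt-Cytb at 10.5% in Ctrl and 10.6% in Fgfr2 KO, were near luminal keratin cells in this. In few-keratin cells, which also carried immune markers, mt-Cytb took 9.54% and 9.91%. Without those above 25% it took 8.78% and 7.18% there, and the mt-Nd genes took 16.8% in both libraries. Lower shares of these genes were thus not particular to Ptprc cells. Over single cells the median mt-Cytb share was 11.0% in luminal keratin and 7.28% in Ptprc cells of Ctrl, and 10.0% and 7.49% in Fgfr2 KO. The upper quartiles in Ptprc cells (9.65% and 9.23%) lay below the lower quartiles in luminal keratin cells (9.89% and 9.56%). In Ptprc cells with fewer than 10 keratin UMIs mt-Cytb took 7.09% and 7.46%, and mt-Co1 was at 0.24 (0.19 to 0.30) in Ctrl and 0.61 (0.52 to 0.69) in Fgfr2 KO over luminal keratin cells. The Fgfr2 KO value includes the 2 cells above 25%. Without them mt-Co1 was at -0.01 (-0.11 to 0.09), mt-Atp6 at -0.12 (-0.22 to -0.02), mt-Cytb at -0.85 (-1.01 to -0.69) and mt-Nd2 at -1.08 (-1.37 to -0.79), with a mitochondrial sum of -0.36 (-0.40 to -0.31). Over Ctrl, Fgfr2 KO Ptprc cells chosen in the same way had a mitochondrial sum of -0.04 (-0.08 to 0.01). In each of these choices of cells, mt-Co1 was above mt-Cytb and mt-Nd2.

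**Figure D5:**
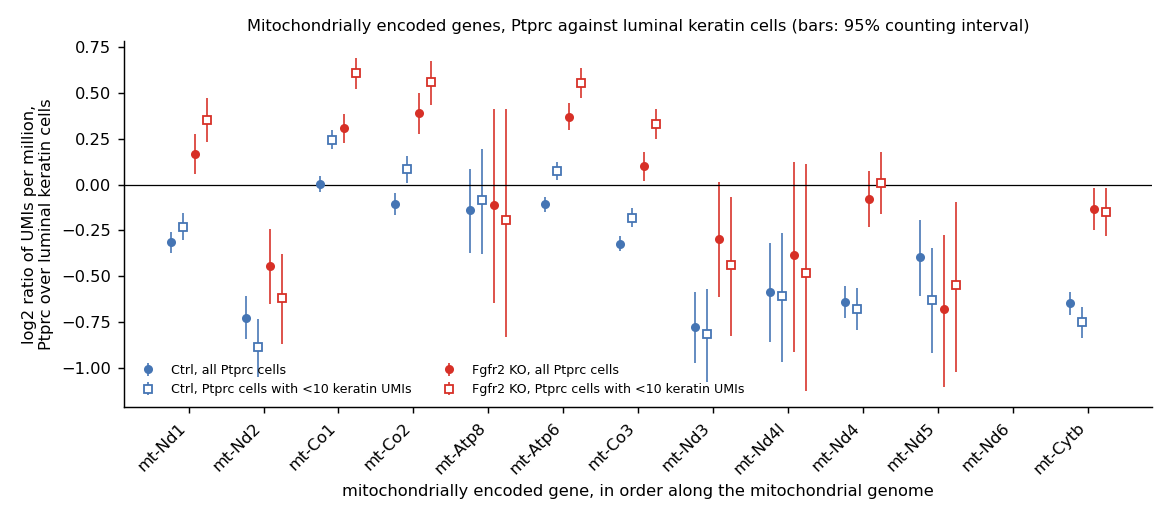
Log2 ratio of UMIs per 1000000, Ptprc over luminal keratin cells (y axis), for each mitochondrially encoded gene in its order along the genome, in Ctrl (blue) and Fgfr2 KO (red); filled circles are all Ptprc cells, open squares those with fewer than 10 keratin UMIs, bars are 95% counting intervals, and mt-Nd6 is left out for low counts. All Fgfr2 KO values include the 2 Ptprc cells above 25%. In both libraries mt-Co1, mt-Co2 and mt-Atp6 lie above mt-Nd2 and mt-Cytb.

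Among nuclear members, Ndufa4 was the one whose interval lay farthest below 0 in Ptprc cells of Ctrl (714 and 444 CPM, -0.69, -0.82 to -0.55), and it was lower in Fgfr2 KO too (573 and 387 CPM, -0.57, -0.90 to -0.24). In Ctrl Ptprc cells with fewer than 10 keratin UMIs it was at -1.28 (-1.50 to -1.07). Uqcrc2, a core subunit of complex III (138 and 84.99 CPM, -0.70, -1.02 to -0.38), and Ndufaf2 (48.7 and 24.9 CPM, -0.97, -1.59 to -0.40) were lower in Ctrl. The complex I subunits Ndufv3 (149 and 214 CPM, 0.53, 0.30 to 0.75) and Ndufa1 (180.3 and 251 CPM, 0.48, 0.27 to 0.69) and the complex III subunit Uqcrq (477 and 587 CPM, 0.30, 0.16 to 0.43) were higher. Members of complex III therefore lay on both sides of 0, and the nuclear sums by complex were -0.07 for complex I, -0.13 for complex III, -0.06 for complex IV and -0.13 for complex V. In Fgfr2 KO, Atp5b (789 and 438 CPM, -0.85, -1.15 to -0.55) and Atp5d (444 and 251 CPM, -0.82, -1.24 to -0.43) were lower in Ptprc cells. Atp5k, an ATP synthase subunit with its promoter shown above (431 and 578 CPM, 0.43, 0.12 to 0.72), and Ndufa3 (214 and 302 CPM, 0.49, 0.07 to 0.92) were higher, and Atp5k was at 0.28 (-0.08 to 0.63) in cells with fewer than 10 keratin UMIs. By the 1.5-fold rule 0 of 85 members were higher and 8 lower in Ctrl, beside 12.9% and 29.8% of 4462 genes, and 0 of 78 were higher and 9 lower in Fgfr2 KO, beside 16.5% and 24.9% of 1055 genes. By interval, 9 of 73 nuclear members were above and 31 below 0 in Ctrl, beside 16.7% and 42.9% of all genes compared, and 2 and 16 of 66 in Fgfr2 KO, beside 20.5% and 39%. Members lower past 1.5-fold were more in other choices of Ptprc cells: 24 of 70 members, beside 41.0% of 831 genes, in Fgfr2 KO without the deepest cell on each side, and 17 of 85 members, beside 47.6% of 3950 genes, in Ctrl and 23 of 76 members, beside 42.2% of 956 genes, in Fgfr2 KO with fewer than 10 keratin UMIs. The nuclear sum of Fgfr2 KO was then -0.40 without the deepest cells and -0.36 with fewer than 10 keratin UMIs.

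Subunits with tissue isoforms were counted almost wholly as the widely expressed form. Cox4i1 had 8069 UMIs and Cox4i2, its lung isoform, 29, at 8.83 CPM in basal and 2.28 CPM in luminal keratin cells of Ctrl. Cox6a1 had 3579 UMIs and the heart and muscle form Cox6a2 21, with 12 of them in 1 cell. Cox7a2 had 2997 and the muscle form Cox7a1 54, at 7.61 CPM in luminal and 0.803 CPM in basal keratin cells of Ctrl. Cox4i2 and Cox7a1 were under the minimum of 100 UMIs, so their levels were not compared between classes. Cox8a had 6528 UMIs against 0 for Cox8b, Cox6b1 4740 against 102 for the testis form Cox6b2, and Ndufa4 4246 against 23 for Ndufa4l2, 12 of them in 1 cell. All 3 genes of the ATP synthase c subunit, which share their mature protein, were present, with 4102 UMIs for Atp5g2, 3180 for Atp5g1 and 2169 for Atp5g3. These totals are captured 3′ ends and are not scaled by length.

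Lists of neighbouring pathways gave the surroundings of these values. Complex II (4 genes) was at 459 and 492 CPM (0.10, -0.10 to 0.29) in luminal keratin cells of Ctrl and Fgfr2 KO, and its ratio of basal over luminal keratin cells in Ctrl was -0.22 (-0.38 to -0.07), with 4 of 4 genes lower and 0 past 1.5-fold. In the same comparison the 17 genes of the citric acid cycle and pyruvate dehydrogenase were at -0.24 (-0.33 to -0.15), with 15 of 17 lower and 3 past 1.5-fold, beside 13% of all genes past that fold. The 16 genes of complex IV assembly and of cytochromes c and c1 were at -0.36 (-0.45 to -0.26), with 8 of 10 compared lower. These lists were below 0 like the nuclear members, and so was the median of all genes compared, given above. In Ptprc against luminal keratin cells of Ctrl, the citric acid cycle list was lower (-0.38, -0.47 to -0.29, 17 of 17 lower, beside a median of -0.31 over all genes), while the 14 glycolysis genes were higher (0.19, 0.15 to 0.22, 10 of 14 higher and 3 past 1.5-fold, beside 12.9% of all genes). In Ptprc cells of Fgfr2 KO over Ctrl, glycolysis was lower (6721 and 4488 CPM, -0.58, -0.67 to -0.50), with 10 of 10 genes lower and 5 past 1.5-fold, beside 17.2% of all genes. Without the deepest cell on each side it was at -1.12, with 8 of 10 genes past 1.5-fold beside 22.7% of all genes, and with fewer than 10 keratin UMIs at -1.06 (-1.18 to -0.93). In luminal keratin cells, where the mitochondrial members were higher in Fgfr2 KO, the 19 genes that copy, transcribe and maintain mitochondrial RNA and DNA were at 641 and 619 CPM (-0.05, -0.22 to 0.12), and 9 regulators of mitochondrial biogenesis at 194 and 179 CPM (-0.12, -0.45 to 0.20). The intervals of both include 0. Protein import (21 genes) was at 0.10 (0.03 to 0.17) in luminal keratin, -0.18 (-0.29 to -0.07) in basal keratin and -0.20 (-0.32 to -0.08) in Ptprc cells of Fgfr2 KO over Ctrl.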

How the data were processed

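The deposited file held counts: UMIs per gene and cell for 2 libraries in 1 table, which the authors made with Cell Ranger (version 2.1.1 and build mm10 per the submitters' processing notes) and joined with its aggr function. The paper's methods name a different Cell Ranger version. No column lacked a sample (0) and 0 barcodes were in both libraries. Depth per cell is given with the libraries, and it limits genes under 100 UMIs over both sides of a comparison, which were not compared. Summed UMIs per class were scaled to 1000000 UMIs. Ratios have exact conditional binomial, levels exact Poisson and shares of cells exact Clopper-Pearson 95% intervals, for counting error only; UMIs of 1 cell are not independent of each other. With 1 library per group there was no test, and a gene was called past a fixed 1.5-fold.

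Classes followed Ptprc (at least 1 UMI) and keratin UMIs (at least 10). No cell was removed and no doublet caller was run, so doublets remain. The text names all mitochondrial members, 8 core subunits, the isoform pairs and, per comparison and direction, up to 3 nuclear members whose interval lay farthest from 0. A result on 1 of these is not reported here. The members and all lists were chosen with earlier results of these data known. Alternatives varied the keratin minimum and majority, the 25% mark, the weight of cells, the deepest cell, the base of the ratio and the UMI minimum, and those for counts, lists, class shares and named genes without particular cells were chosen after seeing the data. Scripts were tested on simulated data. Python 3.11.15, numpy 2.4.6, scipy 1.17.1, pandas 2.3.3 and matplotlib 3.10.9 were used.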

Additional observations from a re-analysis of the deposited data

Results flagged for a closer look

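The nuclear-encoded sum of Fgfr2 KO over Ctrl differed in sign between the classes, at 0.03 on the log2 scale in luminal keratin cells, -0.06 in basal keratin cells and -0.07 in Ptprc cells. The difference between the classes was not tested, and the value in luminal keratin cells was -0.01 when cells were classed by keratin majority with no minimum.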

How the results depend on the processing

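All values are log2 ratios of summed UMIs or numbers of members. Of 45 alternatives to mitochondrial sums, 22 stayed within the counting interval, 21 left it in the same direction or from a level value, and 2 turned the direction; of 45 to nuclear sums these were 29, 15 and 1. With no keratin minimum, the mitochondrial ratio of Fgfr2 KO over Ctrl was 0.48 in luminal and -0.06 in basal keratin cells and the nuclear one turned to -0.01 in luminal keratin cells. This choice adds few-keratin cells with a keratin UMI to the keratin classes, some of them above 25%. Under it the mitochondrial ratio of basal over luminal keratin cells was 0.05 in Ctrl and -0.49 in Fgfr2 KO, and that of Ptprc over luminal keratin cells in Fgfr2 KO turned to -0.14, with nuclear ratios of -0.08 in Ctrl and -0.13 in Fgfr2 KO. With at least 80% of keratin UMIs on 1 side, the mitochondrial ratio of Fgfr2 KO over Ctrl was 0.27 in luminal keratin cells. Basal over luminal keratin cells then gave mitochondrial 0.04 and nuclear -0.13 in Ctrl, and -0.26 and -0.24 in Fgfr2 KO, and Ptprc over luminal keratin cells nuclear -0.12 in Ctrl and mitochondrial 0.10 in Fgfr2 KO. With each cell weighted alike, Fgfr2 KO over Ctrl was 0.25 (mitochondrial, luminal keratin), 1.11 (mitochondrial, Ptprc) and -0.26 (nuclear, Ptprc), basal over luminal keratin -0.03 in Ctrl and -0.29 in Fgfr2 KO (mitochondrial), and Ptprc over luminal keratin in Fgfr2 KO 0.61 (mitochondrial) and -0.41 (nuclear). Without the deepest cell on each side, Fgfr2 KO over Ctrl was 0.33 (mitochondrial) and 0.07 (nuclear) in luminal keratin cells, -0.02 (nuclear) in basal keratin cells, and 0.78 (mitochondrial) and -0.20 (nuclear) in Ptprc cells. Basal over luminal keratin was then -0.01 in Ctrl and -0.37 in Fgfr2 KO (mitochondrial), and Ptprc over luminal keratin -0.13 in Ctrl and -0.40 in Fgfr2 KO (nuclear). Without cells above 25% the mitochondrial ratio in Ptprc cells was 0.10 for Fgfr2 KO over Ctrl and turned to -0.35 for Ptprc over luminal keratin cells of Fgfr2 KO. For Ptprc cells with fewer than 10 keratin UMIs, Fgfr2 KO over Ctrl was 0.67 (mitochondrial) and -0.20 (nuclear), and Ptprc over luminal keratin cells -0.13 for both sums in Ctrl and 0.35 (mitochondrial) and -0.36 (nuclear) in Fgfr2 KO.

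With a minimum of 20 UMIs, which admits more genes, 3 of 95 members were past 1.5-fold higher (12.4% of 9067 genes) and 1 lower (18.7%) in luminal keratin cells of Fgfr2 KO over Ctrl and 8 of 89 lower in basal keratin cells (22.3% of 6639 genes), 1 of 95 was higher (11.3% of 9537 genes) and 5 lower (19.3%) in basal over luminal keratin cells of Ctrl, and 1 of 95 was higher in Ptprc over luminal keratin cells of Ctrl (14.5% of 9691 genes). Without the deepest cells 2 of 84 were higher (5.2% of all genes) and 1 lower (15.4%) in luminal keratin, 1 of 82 higher (5.91%) and 2 lower (15.2%) in basal keratin and 5 of 80 lower in Ptprc cells (22.7%) of Fgfr2 KO over Ctrl, and in Fgfr2 KO 3 of 74 were lower in basal (15.9%) and 24 of 70 in Ptprc over luminal keratin cells (41%). Without cells above 25%, 0 of 80 were higher in Ptprc cells of Fgfr2 KO (9.05%). With fewer than 10 keratin UMIs, Ptprc over luminal keratin cells gave 2 of 85 higher (14.5% of all genes) and 17 lower (47.6%) in Ctrl and 1 of 76 higher (18.9%) and 23 lower (42.2%) in Fgfr2 KO. Apart from the cells left out or the UMIs admitted, the cause was not tested. No paired analysis was possible because each group is 1 library and no result comes from a test. Leaving out a replicate was not possible for the same reason, and members with under 100 UMIs are limited by depth.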
